A study of Homo sapiens with 15 samples.

Results

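Metformin and phenformin are positively charged at the pH of blood and cytosol, and metformin crosses membranes slowly unless a transporter carries it. The transporters described here were the 7 genes given by name as the known routes for such compounds, namely SLC22A2, SLC22A3, SLC29A4, SLC47A1, SLC47A2, SLC19A2 and SLC19A3. A gene entered through the RefSeq accession printed with each array probe. By this rule 6 of the 7 genes had a probe, with 8 probes in all, out of 22439 gene symbols and 58201 probes on the array. No probe was joined to SLC22A3, and this gene was not analysed here.

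RNA came from A2058 cells, an established human malignant melanoma line, after 8 hours of exposure. The 5 groups were NP (3 μM, carried in DMSO), metformin (5000 μM), phenformin (50 μM), DMSO alone and water alone, with 3 independent experiments in each group and 15 single-dye arrays in total. The sample labels name the first compound NP and the series title gives neopetasin, whereas the methods of the study describe petasin at the same concentration, time and cell line, so the compound is called NP throughout. The design pairs NP with DMSO and each biguanide with water. A2058 is 1 cell line grown in culture, so the arrays hold no kidney, liver or gut cells, in which these transporters are best known. Of 8 melanocyte lineage markers, 7 were well above background on all 15 arrays, and TYR, the pigment enzyme tyrosinase, was above it on 13. Of 6 hepatocyte markers, 3 were above background on all 15 arrays, but albumin (ALB) and transthyretin (TTR) were above it on 1 array each and apolipoprotein B (APOB) on none. All 6 markers taken for the kidney tubule, among them LRP2 and AQP1, were above background on all 15 arrays of this melanoma line, so that list does not separate the cell types here.

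The family falls into 3 roles. SLC22A2 (OCT2), SLC22A3 (OCT3) and SLC29A4 (PMAT) admit organic cations into the cell along the membrane potential. SLC47A1 (MATE1) and SLC47A2 (MATE2-K) exchange organic cations for protons and are known for the last step of metformin excretion in the kidney. SLC19A2 (THTR1) and SLC19A3 (THTR2) carry thiamine, the vitamin B1 precursor of the cofactor of pyruvate dehydrogenase, and metformin is a known substrate and inhibitor of thiamine transport.

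The promoters of 2 pairs are shown because the genes of each pair lie at opposite ends of detection on these arrays. SLC19A2 was detected on every array and SLC19A3 on none. SLC29A4 was detected on every array by its brighter probe and SLC22A2 on 2 arrays. The sequences are those of RefSeq on build GRCh38.p14, 300 bases each, written 5′ to 3′ along the gene, and capitals mark the GC box, searched as GGGCGG on either strand (CCGCCC on the printed strand).
SLC19A2 promoter (chr1:169485921-169486220, - strand): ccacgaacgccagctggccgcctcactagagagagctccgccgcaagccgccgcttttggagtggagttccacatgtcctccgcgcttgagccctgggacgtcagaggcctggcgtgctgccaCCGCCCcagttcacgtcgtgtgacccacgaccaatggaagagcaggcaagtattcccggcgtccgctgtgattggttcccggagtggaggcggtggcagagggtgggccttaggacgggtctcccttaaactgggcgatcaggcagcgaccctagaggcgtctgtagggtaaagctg
SLC19A3 promoter (chr2:227717979-227718278, - strand): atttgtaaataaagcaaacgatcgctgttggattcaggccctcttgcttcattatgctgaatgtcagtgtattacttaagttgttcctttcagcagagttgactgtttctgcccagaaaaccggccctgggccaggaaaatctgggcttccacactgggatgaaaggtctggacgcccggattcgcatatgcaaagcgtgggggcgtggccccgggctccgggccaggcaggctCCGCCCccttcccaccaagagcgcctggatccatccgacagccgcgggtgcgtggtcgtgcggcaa
SLC29A4 promoter (chr7:5282693-5282992, + strand): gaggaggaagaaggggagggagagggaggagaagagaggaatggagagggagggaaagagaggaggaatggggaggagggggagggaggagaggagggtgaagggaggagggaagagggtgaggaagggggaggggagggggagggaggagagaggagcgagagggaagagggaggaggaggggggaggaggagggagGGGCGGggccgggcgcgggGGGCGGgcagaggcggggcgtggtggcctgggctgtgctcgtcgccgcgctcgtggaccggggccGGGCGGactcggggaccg
SLC22A2 promoter (chr6:160258772-160259071, - strand): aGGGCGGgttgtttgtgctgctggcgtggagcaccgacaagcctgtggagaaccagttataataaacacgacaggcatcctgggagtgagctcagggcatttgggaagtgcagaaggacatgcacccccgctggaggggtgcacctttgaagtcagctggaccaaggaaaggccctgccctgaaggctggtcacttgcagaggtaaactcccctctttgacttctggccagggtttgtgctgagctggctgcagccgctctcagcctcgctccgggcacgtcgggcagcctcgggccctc

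The SLC29A4 window held 3 GC boxes and the other printed windows held 1 each. A TATA box (TATAAA) and an E box (CACGTG), searched on both strands, were in none of the 4 windows. Over all 35116 promoters of the same length, 45.0% held a GC box, 11.5% a TATA box and 7.26% an E box. Among genes detected on all 15 arrays the share with a GC box was 67.7% of 10970 promoters, and among genes detected on no array it was 29.3% of 1312. The number of CpG dinucleotides was 24 in the SLC19A2 window, 18 in the SLC19A3 window, 18 in the SLC29A4 window and 11 in the SLC22A2 window. The medians were 26 for genes detected on all arrays and 5 for genes detected on none. The undetected SLC19A3 had as many CpG dinucleotides as the detected SLC29A4, and both held a GC box, so neither feature separated these genes by detection. SLC47A2, which has 2 listed starts, had 8 CpG dinucleotides in each window and a GC box in the first window only.

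Detection was read from the flag of the extraction software that calls a spot well above background. The signal is given as a log2 level, which is the log2 of the processed signal minus the log2 of the 75th percentile of that array, so that a level of 0 is the brightness of the 75th percentile. Levels of different probes are not comparable, because probes differ in sequence and in binding. The number of probes above background was 25804 to 45043 per array. It ran from 25804 to 32056 on the DMSO and NP arrays and from 31408 to 45043 on the water and biguanide arrays. The lowest log2 level that still counted as above background ran from -4.99 to -3.30 over the 15 arrays, and it was higher on all DMSO and NP arrays than on all water and biguanide arrays. No spot was saturated.

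Of the 6 genes with a probe, 3 were detected on all 15 arrays, 2 on some and 1 on none. Over the whole array 22439 gene symbols had a probe. The 13868 named features compared with each transporter below were above background on all 15 arrays, so detection throughout was not particular to these genes. SLC19A2, SLC29A4 and SLC47A1 were the genes detected throughout, so each of the 3 roles had a gene flagged by at least 1 probe. The dimmer probe was above background on 10 arrays for SLC29A4 and on 8 for SLC47A1. The kidney tubule markers SLC34A1 and SLC5A2 met the same flag on all 15 arrays, so the flag alone does not settle that a role is filled in these cells. SLC22A2, the uptake carrier of the kidney, was above background on 2 of 15 arrays, both of the metformin group. Its log2 levels in that group were -4.45, -4.50 and -6.81, of which the first and second were above background. In the water group the levels were -4.88, -6.11 and -6.57, none of them above background. In the phenformin group they were -5.20, -5.50 and -6.84, in the DMSO group -6.38, -5.78 and -5.47, and in the NP group -6.52, -5.51 and -5.85, none above background. The ranges of the metformin and water arrays overlapped, and the metformin mean was -5.25 ± 1.35 (SD, n = 3) against -5.86 ± 0.88 (SD, n = 3) with water. Because only 2 of 3 metformin arrays measured the gene and the mean of those 3 arrays lay below the background limit of the water arrays, no fold is given. The 2 arrays that detected SLC22A2 were also the first and second metformin arrays, with 44450 and 37924 probes above background against 31408 on the third. The first and second water arrays, with 45043 and 36841 probes above background, did not detect it. The part of these differences between arrays in the detection was not tested.

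SLC47A2, the kidney-type efflux exchanger, showed the same limit. It was above background on 1 water array and 1 metformin array, at log2 levels of -3.10 and -3.19. These were the 2 arrays with the most probes above background, 45043 and 44450, and the replicate number and slide of both were the same. On the other water arrays the level was -5.66 and -5.98, and on the other metformin arrays it was -5.19 and -6.64. The phenformin arrays lay at -5.63, -4.93 and -5.52, the DMSO arrays at -6.51, -5.81 and -5.43, and the NP arrays at -5.87, -5.46 and -5.87. The means were -4.91 ± 1.58 (SD, n = 3) with water and -5.00 ± 1.73 (SD, n = 3) with metformin. The detected array set the spread with water, whereas with metformin the undetected arrays, at -5.19 and -6.64, also lay apart.

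SLC19A3, the second thiamine carrier, was above background on 0 of 15 arrays. A less strict flag, which asks only that a signal is positive and significant against the local background, was met on 1 array, the second DMSO array. By that flag SLC22A2 was detected on 7 arrays and SLC47A2 on 9, so the 3 dim genes differed from each other in how far they fell short. The log2 levels of SLC19A3 were -7.25 to -7.03 with water, -7.22 to -6.85 with metformin and -7.09 to -6.92 with phenformin. They were -6.38, -4.31 and -5.52 with DMSO and -6.53, -5.54 and -5.90 with NP. All 6 values from the DMSO and NP arrays lay above all 9 values from the water and biguanide arrays. The background limit of the arrays was shifted in the same direction. It was -4.99 to -4.59 on the water and biguanide arrays and -4.36 to -3.30 on the DMSO and NP arrays. The share of all features split in this way was not counted.

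Next, it was asked whether 8 hours of each compound changed the transporters that could be measured. A probe entered the test when some group had it above background on each of its 3 arrays. This left 5 of the 8 probes, and the brighter probe stood for each gene, which gave 3 transporters among 26826 features. A call needed a 1.5-fold change or more in either direction and a Benjamini-Hochberg adjusted p of at most 0.05 in limma, fitted over all 15 arrays with the replicate number as a block. NP against DMSO called 0 of the 3 transporters and 0.0373% of all features (10 features). Metformin against water called 0 of 3 and 0.0% of all features. Phenformin against water called 0 of 3 and 0.0261% of all features (7 features). At an unadjusted p of at most 0.05, 1 transporter passed in NP against DMSO, where 4.69% of all features did, and 0 passed in metformin against water (2.46% of all features) and in phenformin against water (2.35%). In none of these 3 comparisons were the 3 arrays of the treatment all on one side of the 3 arrays of its vehicle for a tested transporter, as was the case for 6.44%, 5.75% and 8.15% of 26628 features, respectively. These calls were so rare over the whole array that the absence of a transporter among them is near the background.

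SLC19A2 was measured most precisely. Its log2 levels were 2.53, 2.47 and 2.55 with DMSO and 2.33, 2.54 and 2.72 with NP. Both groups averaged about the same level, 2.52 ± 0.04 (SD, n = 3) and 2.53 ± 0.20 (SD, n = 3), and their ranges overlapped. In limma the log2 fold change of NP against DMSO was 0.01 with a 95% interval of -0.25 to 0.27 (adjusted p = 1), or a fold of 0.843 to 1.21. The water arrays lay at 1.70, 2.11 and 2.26 and the metformin arrays at 1.68, 1.95 and 2.03. The metformin level was the lower one in 3 of 3 replicate pairs, with a log2 fold change of -0.14, a 95% interval of -0.40 to 0.12 and an adjusted p of 1 in limma. The phenformin arrays lay at 1.99, 2.12 and 2.04, within the range of the water arrays. Their log2 fold change against water was 0.03, with a 95% interval of -0.23 to 0.29 (adjusted p = 1 in limma). For each treatment against its own vehicle these intervals leave out a change of SLC19A2 as large as the 1.5-fold threshold, in either direction.

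SLC47A1, the proton-coupled exchanger, gave similar levels in all groups by its brighter probe (A_24_P142503). The log2 levels were -1.88, -2.20 and -2.10 with DMSO, -2.46, -2.20 and -1.99 with NP, and -2.01, -2.05 and -2.37 with water. With metformin they were -2.14, -2.04 and -2.13, and with phenformin -2.26, -2.04 and -2.01. The group means ran from -2.22 to -2.06, and each group overlapped its neighbour in that order. The log2 fold change was -0.16 for NP against DMSO (95% interval, -0.50 to 0.19), 0.04 for metformin against water (-0.31 to 0.38) and 0.04 for phenformin against water (-0.30 to 0.38), each with an adjusted p of 1 in limma. These intervals leave out the 1.5-fold threshold on both sides, but for NP against DMSO the interval reached past it, at -0.67 to 0.36, when only those groups were fitted. With the mean of both SLC47A1 probes the log2 fold change of NP against DMSO was -0.57, but the dimmer probe was above background on no DMSO or NP array.

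The dimmer SLC47A1 probe (A_33_P3403399) was detected in some groups only. It was above background on all 3 water arrays at -4.00, -4.11 and -4.43, on all 3 metformin arrays at -3.07, -4.07 and -4.14, and on 2 of 3 phenformin arrays, whose levels were -3.97, -4.39 and -4.51. On the DMSO and NP arrays it was above background on none, with log2 levels of -5.04, -4.32 and -5.44 and of -6.65, -5.19 and -5.90. When every probe was tested as its own feature, the log2 fold change of metformin against water was 0.42 (95% interval, -0.42 to 1.27; adjusted p = 1 in limma) and that of phenformin against water was -0.11 (-0.95 to 0.74; adjusted p = 1). No fold of NP against DMSO is given for this probe, because both groups were below background. For DMSO against water the background limit of the DMSO arrays lay above the mean level of the water arrays, so no bound on the fold could be set either.

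SLC29A4, the plasma membrane monoamine transporter, was the most variable of the detected genes. By its brighter probe (A_23_P168551) the log2 levels were -2.86, -0.92 and -2.33 with DMSO and -2.91, -2.91 and -2.72 with NP. The second DMSO array stood above the other 14 arrays, which ranged up to -1.68. The mean was -2.04 ± 1.01 (SD, n = 3) with DMSO and -2.85 ± 0.11 (SD, n = 3) with NP, and the groups overlapped. In limma the log2 fold change was -0.81, with a 95% interval of -1.58 to -0.04, a p of 0.0411 before adjustment and an adjusted p of 1. The differences within the replicate pairs were -0.05, -2.00 and -0.39. Without the second pair the log2 fold change was -0.22, and without the first or the third it was -1.19 or -1.02, so the DMSO array of the second pair set the size of the difference. SLC29A4 did not pass the test.

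The other SLC29A4 probe (A_33_P3224190) carries the same RefSeq accession and did not follow the first. Its log2 levels were -4.13, -5.28 and -5.16 with DMSO and -4.20, -4.35 and -3.78 with NP, and only the first array of each group was above background. No fold is given, since only 1 of 3 arrays in each group measured it. The differences within pairs were -0.08, 0.93 and 1.38. The second DMSO array, the brightest of all for the first probe, was the dimmest of the DMSO arrays for this one. With the mean of both probes the log2 fold change of SLC29A4 was -0.03, a value that includes the levels of the dimmer probe below background.

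Both SLC29A4 probes overlapped between each biguanide and water. The brighter probe was at -2.12, -1.76 and -2.37 with water, at -1.68, -1.84 and -2.26 with metformin and at -1.96, -1.96 and -2.24 with phenformin. Its log2 fold change was 0.15 for metformin against water (95% interval, -0.62 to 0.92) and 0.03 for phenformin against water (-0.74 to 0.80), each with an adjusted p of 1 in limma. For the other probe the corresponding values were 0.09 (-0.60 to 0.78) and 0.18 (-0.51 to 0.88). These intervals reach beyond the 1.5-fold threshold on at least 1 side, so a change of that size was not excluded by the measurement of this gene. The concentrations of the 2 biguanides (5000 and 50 μM) differed, so their values are given side by side and were not compared with each other.

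**Figure D1:**
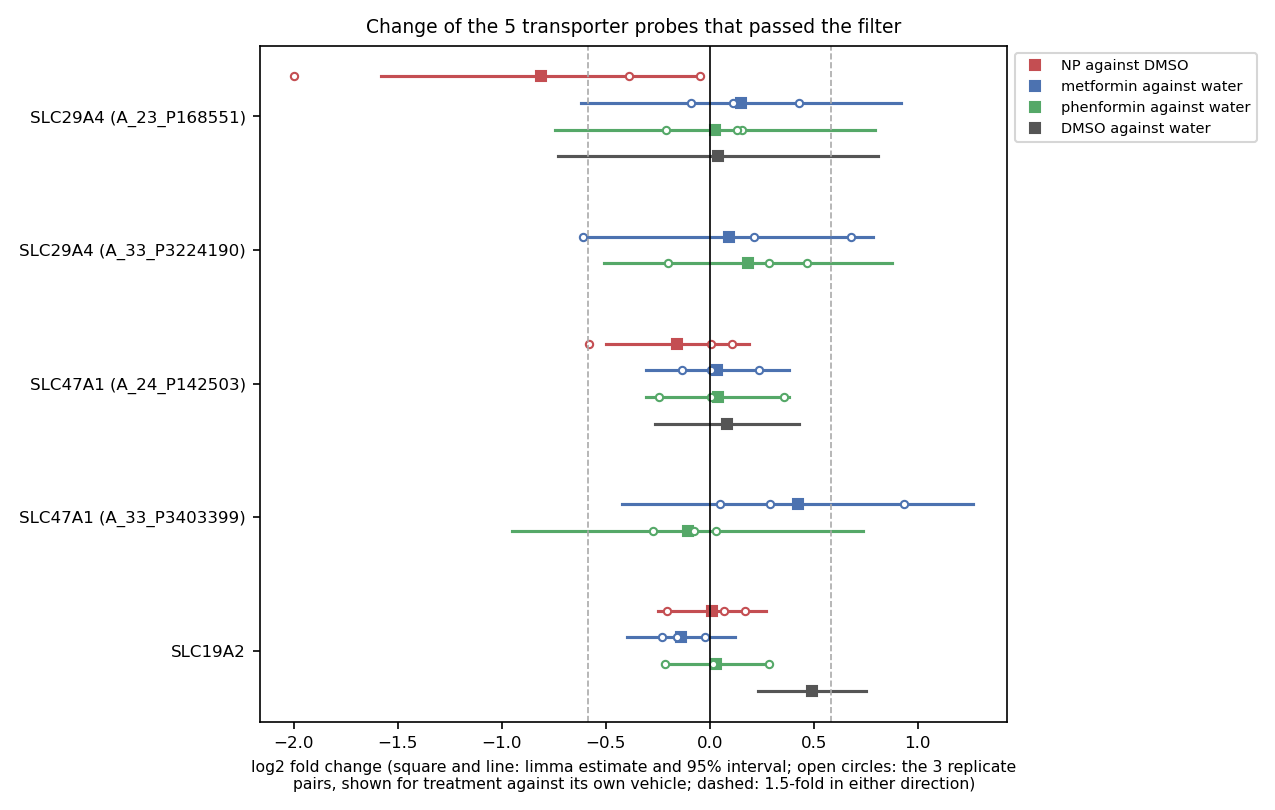
Log2 fold change (horizontal axis) of the 5 transporter probes that passed the filter, for NP against DMSO, metformin against water, phenformin against water and DMSO against water. Squares and lines are the limma estimates with 95% intervals, open circles the 3 replicate pairs of a treatment and its own vehicle, and dashed lines the 1.5-fold threshold. Comparisons with DMSO are not drawn for the dimmer probes of SLC29A4 and SLC47A1, which were above background on 1 and 0 of the DMSO arrays. The brighter SLC29A4 probe lies at -0.81 for NP against DMSO, with the widest spread of pairs in that comparison, and SLC19A2 lies at 0.49 for DMSO against water.

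Whether NP acted differently from the biguanides on the same gene was tested as the difference between the effects, each against its own vehicle. None of the 3 transporters was called in either test (0.0% of all features in both), and none had an unadjusted p of at most 0.05, compared with 2.78% of all features for NP against metformin and 2.43% for NP against phenformin. For SLC19A2 the difference of log2 fold changes was 0.15 between NP and metformin (95% interval, -0.22 to 0.52) and -0.02 between NP and phenformin (-0.38 to 0.35). For SLC47A1 it was -0.19 (-0.68 to 0.29) and -0.20 (-0.68 to 0.29). For SLC29A4 it was -0.96 (-2.05 to 0.13) and -0.84 (-1.93 to 0.25), with an adjusted p of 1 in limma in each case, and these values rest on the same second DMSO array. All these values are those of the brighter probe where a gene has more than 1. The dimmer SLC29A4 probe gave both differences with the opposite sign. It was above background on only 1 of 3 DMSO arrays and 1 of 3 NP arrays, so its values are not given.

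The larger contrast for SLC19A2 lay between the vehicles. All 3 DMSO arrays, at 2.47 to 2.55, were above all 3 water arrays, at 1.70 to 2.26. The log2 fold change of DMSO against water was 0.49 (95% interval, 0.23 to 0.75; adjusted p = 0.0209 in limma), a fold of 1.41, which passed the p threshold and missed the fold threshold. The same-numbered arrays of the vehicles did not deviate together, and the adjusted p in limma was 0.0581 without the replicate block, 0.252 with slide as a random block and 0.325 when only those groups were fitted, so the pass in p depended on the fit. SLC19A2 was not called, and 0 of the 3 transporters were called in this comparison, against 10.6% of all features (2842 features). An unadjusted p of at most 0.05 was found for 1 transporter, SLC19A2, and for 33.8% of all features, and groups that did not overlap for the same gene and for 29.6% of all features. SLC29A4 (0.04, 95% interval -0.73 to 0.81) and SLC47A1 (0.08, -0.26 to 0.43) did not pass. No slide held both vehicles, since the DMSO and NP arrays shared 2 slides and the water and biguanide arrays shared another 2, so vehicle and slide cannot be told apart. The median log2 fold change of all features in this comparison was -0.12, on the other side of 0 from SLC19A2. Without replicate 1 or replicate 2 the log2 fold change of SLC19A2 was 0.33 or 0.56 and the adjusted p 0.232 or 0.18, and without replicate 3 it was 0.60 with an adjusted p of 0.0241 in limma, past both thresholds.

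The choice of comparator decided whether SLC19A2 was called. The methods of the study set all compounds against DMSO, while the series record sets the biguanides against water. Against DMSO, the log2 fold change of SLC19A2 was -0.63 with metformin (95% interval, -0.89 to -0.37; adjusted p = 0.0056 in limma), which was called. When only those groups were fitted, the adjusted p was 0.186 and the call was lost. With phenformin it was -0.46 (-0.72 to -0.20; adjusted p = 0.0241), which missed the fold threshold. In these comparisons 1 of 3 and 0 of 3 transporters were called, against 17.0% and 10.3% of all features. Neither contrast lies within a slide, and both use the same DMSO arrays. The dimmer SLC47A1 probe, tested as its own feature, was called upward for metformin against DMSO in limma. It passed the filter only through the water and metformin groups. For this probe the mean of the metformin arrays lay at the background limit of the DMSO arrays, none of which measured it. No fold is given, and nothing is concluded from that call. SLC29A4 (0.11) and the brighter SLC47A1 probe (-0.05) had adjusted p values of 0.84 and 0.849 in limma for metformin against DMSO.

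Over the 5 groups, the order of the SLC19A2 log2 level was NP, DMSO, phenformin, water and metformin. Only the step from DMSO to phenformin, 0.46, separated groups whose arrays did not overlap, and that step is also the step between the sets of slides. For SLC29A4 the order was metformin, DMSO, phenformin, water and NP by the brighter probe, and NP, phenformin, metformin, water and DMSO by the dimmer one. For the brighter probe the last step, 0.77 from water to NP, separated arrays that did not overlap, again across the sets of slides. The share of all features separated in these pairs of groups was not counted. DMSO against water, across the same sets of slides, separated 29.6% of all features. For SLC47A1 the order was DMSO, phenformin, metformin, water and NP by the brighter probe, and metformin, water, phenformin, DMSO and NP by the dimmer one, and no neighbours were separated by either.

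The relatives of these carriers were measured beside them, from lists chosen with earlier results of the data known. Among 8 related organic cation and nucleoside transporters, 4 were above background on all 15 arrays. These were SLC22A4 and SLC22A5, the ergothioneine and carnitine carriers, and SLC29A1 and SLC29A2, the equilibrative nucleoside transporters in the family of SLC29A4. Of the 6 tested in this list, 0 were called in NP against DMSO, metformin against water or phenformin against water, with median log2 fold changes of 0.02, 0.04 and 0.06 against -0.01, 0.00 and -0.03 for all features. SLC22A5 had a log2 fold change of -0.62 for metformin against DMSO (adjusted p = 0.00534 in limma), which was called, and of -0.09 for metformin against water. Metformin against DMSO does not lie within a slide, and it called 17.0% of all features. Of 3 other drug efflux pumps, ABCC1 was above background on all 15 arrays and 2 pumps were tested. None was called in a treatment against its own vehicle. ABCG2, a pump of the blood-brain barrier and gut, was above background on 12 of 15 arrays but on only 1 of 3 DMSO arrays. Its log2 levels were -3.09, -3.69 and -3.59 with DMSO, of which 1 was above background, and -2.12, -2.37 and -2.82 with water. DMSO against water and metformin against DMSO were called for it in limma. ABCG2 passed the filter only through the water, metformin and phenformin groups, where it was brighter than with DMSO. The filter thus leaned toward these calls, and nothing is concluded from them. No fold or p is given for either comparison, because 2 of the DMSO values were not above background. These comparisons called 10.6% and 17.0% of all features, respectively, and both run across slides. Metformin against water gave a log2 fold change of 0.10.

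All 8 enzymes that use thiamine pyrophosphate, including the pyruvate dehydrogenase subunits PDHA1 and PDHB and the transketolase TKT, were above background on all 15 arrays, and 0 of 8 were called in any treatment against its own vehicle. Their median log2 fold changes were 0.02 with NP, 0.00 with metformin and 0.04 with phenformin. OGDH, the oxoglutarate dehydrogenase, was called for metformin against DMSO at 0.63 (adjusted p = 0.0153 in limma) and had 0.16 for metformin against water. Metformin against DMSO, which runs across slides, called 17.0% of all features.

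The genes whose levels most resembled each transporter were taken by the Pearson r of log2 levels over the 15 arrays, among 13868 named features above background on all of them. For SLC19A2 these were AKAP11 (r = 0.98), CDC40 (r = 0.98) and GOLM2 (r = 0.98). Within the 6 DMSO and NP arrays the r values were 0.98, 0.94 and 0.91, and within the 9 water and biguanide arrays 0.93, 0.94 and 0.95. For SLC29A4 they were SNORA11 (r = 0.92), NSUN3 (r = 0.83) and TMEM147-AS1 (r = 0.83), with 0.97, 0.89 and 0.97 within the DMSO and NP arrays and 0.76, 0.77 and 0.48 within the others. For SLC47A1 they were PBXIP1 (r = 0.78), MMP16 (r = 0.71) and MTMR11 (r = 0.69), with 0.76, 0.87 and 0.63 within the DMSO and NP arrays and 0.88, 0.30 and 0.80 within the others. The points share arrays, slides and scaling, and the values are a description of these arrays.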

How the data were processed

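Total RNA of 15 A2058 cultures was labelled with Cy3 and hybridized to 1-colour Agilent human expression arrays. The deposited intensities are processed signals from Agilent Feature Extraction (version 9.1 per the labels, 10.7.3.1 per the file headers), with the background subtracted and spatial trends removed within an array by the authors, and not normalized between arrays. Per the file headers, the detection flags have the value 0 or 1. The authors' table of log2 values, used as an alternative, matched the log2 signal shifted by 1 constant per array (r = 1.0), with values below 4 set to 4. Its medians were 4.0 to 5.15, and 31.3% to 50.8% of its values lay at this floor.

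Control spots were removed, outlier spots (50 to 240 per array) set to missing and spots of a probe averaged. Each array was scaled by subtracting the log2 value of its own 75th percentile. Of 58201 probes, 33080 carried a RefSeq accession and 31104 of these matched a current symbol. Probes above background on each array of some group (32914) with values on at least 8 arrays were kept, the brightest per gene, which left 26826 features. Of the 402390 values of these features, 225 were missing. A model with 5 groups and the replicate number was fitted in R 4.3.3 with limma 3.58.1 (statmod 1.5.0), two-sided, with Benjamini-Hochberg adjustment. Python 3.11.15, pandas 2.3.3, numpy 2.4.6 and matplotlib 3.10.9 were also used, and the fit was tested on simulated data. Same-numbered arrays of a treatment and its vehicle, which lay on the same slide, deviated together (r of 0.241 to 0.855 over features), whereas those of DMSO and water did not (r of -0.188 to -0.02), so the number pairs the former and not the latter, although the block of the model spans all 15 arrays. Fits without the block, or with it inside each set of slides, were run as alternatives. The 3 experiments per group are independent according to the series record, and the small number of arrays limits the precision.

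All members, with every probe, were named. Related genes were named where they were called, or to state which relatives were measured. The members and lists were chosen with earlier results of these data known. One further list of related genes is not reported here. Alternatives were background correction by normexp with an offset of 50 (on median signals), quantile normalization, the authors' table, the filter, the handling of probes, blocks for replicate and slide, the groups in the fit, the methods' t-test, DMSO as the comparator and leaving out each replicate. Coordinates of promoters are those of GRCh38.p14, and probe positions are not given in the sources used here. Other cell lines and other assays of the study were not used here.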

Additional observations from a re-analysis of the deposited data

How the results depend on the processing

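No transporter was called for NP against DMSO, for phenformin against water or for either difference of effects under any alternative run. Metformin against water called 1 transporter, SLC19A2, with DMSO in place of water, and that call was lost in a fit of only those groups (adjusted p = 0.186 in limma). With every probe as its own feature, metformin against DMSO also called the dimmer SLC47A1 probe, which no DMSO array measured. DMSO against water called 1 without a filter on dim probes, which was SLC19A3 at a log2 fold change of 1.73 (adjusted p = 0.0432 in limma) although its probe was above background on no array, and 0 to 1 when each replicate was left out, the 1 being SLC19A2 at 0.60 without replicate 3. Without the replicate block, the log2 fold change of SLC19A2 for DMSO against water was also 0.49 and its adjusted p was 0.0581, NP against DMSO called 3 features and phenformin against water 0, and the calls of the transporters did not change. With the block nested in each set of slides, chosen after seeing the data, NP against DMSO called 52 features, and with a slide term 63. The methods' t-test without adjustment called 214 features for NP against DMSO, 124 for metformin against water and 168 for phenformin against water, and after Benjamini-Hochberg adjustment 0 in each. Over all alternatives the features called were 0 to 214 for NP, 0 to 4567 for metformin, 0 to 2761 for phenformin and 0 to 5058 for DMSO against water. The 4567 and 2761 were reached with DMSO in place of water, which runs across slides. With water as the comparator the most were 124 for metformin and 168 for phenformin, by the t-test without adjustment. The adjusted p of SLC19A2 for DMSO against water ran from 0.0111 with quantile normalization to 0.476 with the methods' t-test after Benjamini-Hochberg adjustment, and was 0.0639 without the filter, 0.252 with slide as a random block and 0.325 in a fit of only those groups.

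Of the log2 fold changes under an alternative, 264 kept their direction and stayed called or not called as before, 2 came to be called and 22 changed sign. Sizes moved more than calls. SLC29A4, at -0.81 for NP against DMSO, was at -0.36 with normexp, -0.0339 with the mean of the probes and -0.22 without replicate 2. All values that changed sign were under 1.5-fold in size. With normexp, SLC19A2 gave -0.0103 for NP and -0.007 for phenformin. With quantile normalization, SLC47A1 gave -0.0479 for metformin, and the difference of the SLC19A2 effects of NP and phenformin was 0.0079. With the mean of the probes of a gene, SLC47A1 gave -0.033 for phenformin and -0.33 for DMSO against water, and SLC29A4 gave -0.19 for DMSO against water. With the same setting SLC47A1 moved to -0.57 for NP, to 0.23 for metformin and to -0.80 for the difference of these effects, none of them called. The dimmer SLC47A1 probe in these means was above background on no DMSO or NP array. With DMSO in place of water, SLC47A1 gave -0.0462 for metformin and -0.0435 for phenformin, SLC29A4 gave -0.0153 for phenformin and SLC19A2 gave -0.46 for phenformin. When each replicate was left out, SLC19A2 ran from -0.0668 to 0.12 for NP, from -0.0988 to 0.15 for phenformin and from -0.22 to 0.22 for the difference of the NP and phenformin effects. SLC29A4 ran from -0.0388 to 0.14 for phenformin and from -0.36 to 0.44 for DMSO against water. SLC47A1 ran from -0.29 to 0.0571 for NP, from -0.0622 to 0.12 for metformin, from -0.12 to 0.18 for phenformin and from -0.0089 to 0.20 for DMSO against water. The cause of these changes was not tested. SLC22A2, SLC47A2 and SLC19A3 were below background on most or all arrays and were not tested in the reported fit, so changes of these genes could not be measured. A slide term gave no value for DMSO against water.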
